A study of Mus musculus with 8 samples.

Results

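Endothelial marker genes were followed in RNA sequencing libraries of sorted nephron progenitor cells, the cap mesenchyme cells of the embryonic kidney that form the epithelium of the nephron. The set is 10 genes known to mark the cells that line vessels, Plvap, Pecam1, Cdh5, Egfl7, Tek, Tie1, Emcn, Sox17, Kdr and Flt1, and all 10 were among the 20254 genes of the deposited table. The cells came from mouse kidneys at embryonic day 17.5 and were sorted by GFP from Six2EGFPcre animals, in which a fusion of GFP and Cre recombinase is made under Six2, a transcription factor of these progenitors. There were 4 mutant libraries, labelled VHLNP-/-, and 4 control libraries, labelled VHLNP+/-, so both groups carry the transgene and the controls carry 1 deleted Vhl allele. The labels do not give the purity of the sort, nor do they say that replicates are different animals. The p-values therefore measure only how far these libraries vary, and that variation may be technical.

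Endothelial cells line the vessels of the kidney, which grow beside the cap mesenchyme and into the glomerulus. They respond to vascular endothelial growth factor through the receptor tyrosine kinases encoded by Kdr and Flt1, and to angiopoietins through the one encoded by Tek, to which the orphan receptor encoded by Tie1 binds. Pecam1 and Cdh5 encode adhesion proteins of the junctions between these cells, Emcn a sialomucin of their surface, Egfl7 a secreted protein of the vessel wall, Plvap the structural protein of the diaphragms over fenestrae and caveolae, and Sox17 a transcription factor of arterial endothelium. Vhl encodes the part of a ubiquitin ligase that marks the alpha subunits of hypoxia-inducible factor for degradation, and Vegfa is a target of that factor.

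Levels are normalised reads, which are reads per gene divided by the size factor of the library, and the libraries held 37.3 M to 46.5 M reads in genes. Each log2 fold change is the mutant mean minus the control mean of log2(normalised reads + 1), a scale that shrinks changes of genes with few reads. Vhl averaged 318 normalised reads in mutants and 1225 in controls and did not overlap between the groups. Six2 averaged 24101 ± 2213 in mutants and 25540 ± 2806 in controls (SD, n = 4 each, limma adjusted p = 0.647). Control 3 stood apart in markers of several cell types other than progenitors: the median deviation from the control mean was -1.94 for ureteric bud genes, -1.63 for tubule genes and -0.91 for the 10 members on the log2 scale, against 0.05 for progenitor genes and 0.79 for the 2 tested red blood cell genes. Fold changes of the members that rest on it, and their median spread and correlation, are given with and without it.

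The 10 markers were present in every library, at low levels next to Six2. The reads counted for a member ranged from 15 for Sox17 to 831 for Plvap in the libraries where each was lowest and highest. Per kilobase of annotated exon, Plvap stood at 373 normalised reads in mutants and 261 in controls, and Egfl7 at 109 in mutants and 129.9 in controls. Next on the per-kilobase scale came Cdh5 with 48.5 in mutants and 57.3 in controls, and Emcn, Tie1 and Pecam1 with 37.0, 31.7 and 27.3 in mutants and 36.4, 32.3 and 28.3 in controls. Tek, Kdr, Sox17 and Flt1 were lower, with 20.8, 18.8, 8.18 and 4.36 in mutants and 15.7, 23.6, 6.67 and 5.15 in controls. Six2 had 11374 in mutants and 12053 in controls on the same scale, so the level of Pecam1 was 0.24% of that of Six2 in mutants and 0.234% in controls, and the level of Plvap was 3.28% in mutants and 2.17% in controls. In such bulk libraries, the number of endothelial cells, the RNA per endothelial cell and expression of these genes by the sorted progenitors cannot be told apart.

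Plvap was the member that changed between the groups. It had 787, 687, 642 and 846 normalised reads in mutants 1 to 4, against 455, 595, 489 and 536 in controls 1 to 4. Each mutant library was higher than each control library. The lowest mutant was mutant 3 and the highest control was control 2. The means were 741 ± 92.8 in mutants and 519 ± 60.6 in controls (SD, n = 4 each), a rise of 1.43-fold (log2 fold change 0.51, SE 0.11, limma adjusted p = 0.0135), with a 95% interval of 1.21-fold to 1.68-fold. A two-sided exact permutation test of the log2 values over 70 relabellings gave p = 0.0286, the smallest that 4 against 4 libraries allow. Without mutant 4, the highest library, the log2 fold change was 0.44 (limma adjusted p = 0.053), and without control 3 and mutant 2 together it was 0.52 (limma adjusted p = 0.0599), so the call was lost in both. In the authors' deposited table the log2 fold change of Plvap is 0.51 (adjusted p = 5.05e-04). Plvap lies on the minus strand of chromosome 8 from 71497765 to 71511752 (GRCm38, the same assembly as mm10). Gtpbp3 lies on the other strand and overlaps the gene, though no exon of it touches an exon of Plvap.

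The other 9 members were not called, and their groups overlapped. Across all 15381 genes tested, 8.43% were called, 5.4% as higher in mutants and 3.03% as lower, and the groups did not overlap in 15.3%. Among the members 1 of 10 was called and 1 of 10 did not overlap, at an unadjusted p under 0.05 as well as adjusted, which is near those shares. The median log2 fold change was 0.07 over the 10 members and -0.01 over all genes tested. The intervals of the members without a call are wide, so changes of moderate size in either direction remain within them.

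**Figure D1:**
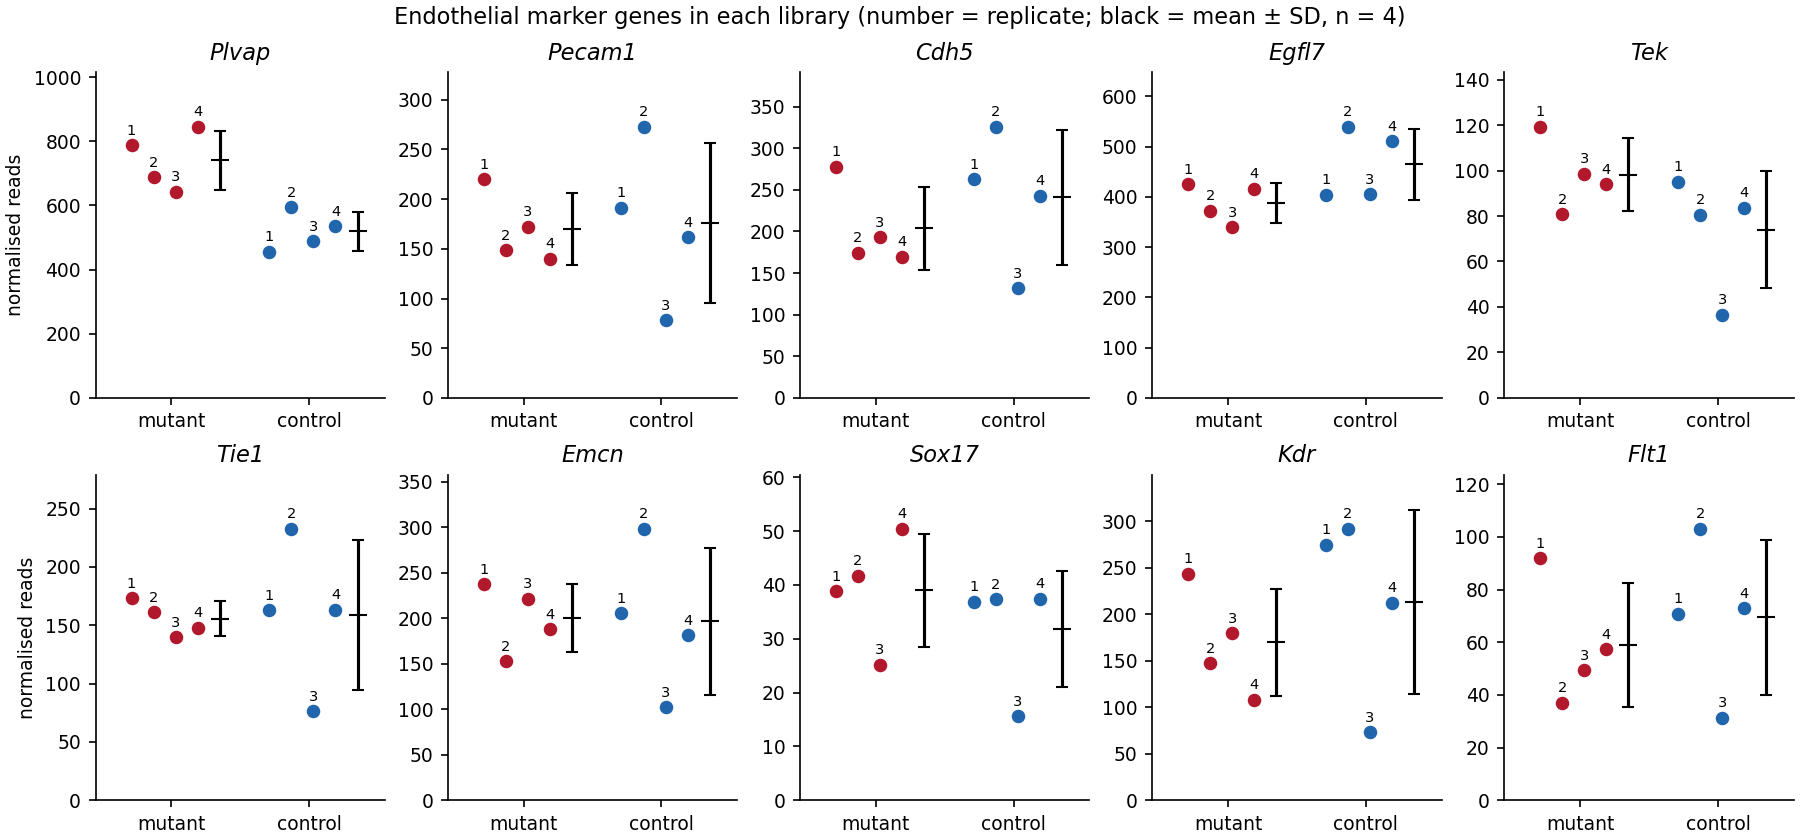
Normalised reads of the 10 endothelial markers in each library, with mutants in red on the left and controls in blue on the right of each panel. Digits are replicate numbers, and black bars are means with SD (n = 4). Plvap is higher in each mutant than in each control, while control 3 is the lowest control for 8 of the 10 genes.

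The junction and surface genes Pecam1, Cdh5 and Emcn shared their highest libraries, mutant 1 and control 2, and their lowest control, control 3. Pecam1 had 219.8, 148, 172 and 139.9 normalised reads in mutants 1 to 4, against 191, 273, 78.3 and 161 in controls 1 to 4. Mutant 1 and control 2 were the highest of their groups and control 3 the lowest of all libraries. The log2 fold change was 0.06 (SE 0.35, limma adjusted p = 0.944), with a 95% interval of 0.601-fold to 1.81-fold. Cdh5 had 278, 174, 193 and 169.7 in mutants 1 to 4, against 263, 326, 131 and 243 in controls 1 to 4. Its control 3 value was again below every mutant and its control 2 value above every mutant, and it was not called (log2 fold change -0.20, SE 0.27, limma adjusted p = 0.728). Emcn had 238, 153, 221 and 188 in mutants 1 to 4, against 206, 299, 102 and 182 in controls 1 to 4. Its means were almost equal, at 200.1 ± 37.6 in mutants and 197 ± 80.8 in controls (SD, n = 4 each, limma adjusted p = 0.887). Without control 3 the log2 fold changes of Pecam1, Cdh5 and Emcn were -0.28, -0.46 and -0.18, and none of these genes was called.

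Of the receptors, Kdr differed most between libraries. Kdr had 243, 147, 179 and 108 normalised reads in mutants 1 to 4, against 275, 292, 73.0 and 212 in controls 1 to 4. Control 3 had 0.281 of the mean of the other 3 controls, the lowest such ratio among the members, and mutant 4 was the lowest mutant. Kdr was not called (log2 fold change -0.21, SE 0.48, limma adjusted p = 0.845), and its 95% interval ran from 0.4-fold to 1.87-fold. Flt1, which encodes a receptor that also acts as a decoy for the ligand, had 91.9, 37.1, 49.3 and 57.3 in mutants 1 to 4, against 70.8, 103, 31.3 and 73.0 in controls 1 to 4 (limma adjusted p = 0.805). Mutant 1 and control 2 were again the highest of their groups. Without control 3, the log2 fold changes of Kdr and Flt1 were -0.66 (limma adjusted p = 0.171) and -0.53 (0.335), and without control 2 that of Flt1 was 0.03.

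Tie1 and Tek, a receptor pair, each had a larger SD in controls, where control 3 was low. Tie1 had 173, 161, 139.9 and 148 normalised reads in mutants 1 to 4, against 163, 233, 76.2 and 163 in controls 1 to 4. All mutants fell between the lowest and the highest control, and the mean was 156 ± 14.8 in mutants and 159 ± 64.1 in controls (SD, n = 4 each, limma adjusted p = 0.919). Without control 3 the log2 fold change of Tie1 was -0.24, and it was not called. Tek had 119, 80.7, 98.7 and 94.0 in mutants 1 to 4, against 95.1, 80.5, 36.5 and 83.6 in controls 1 to 4. Its log2 fold change of 0.48 was close to that of Plvap in size, but its SE was 0.27 and it was not called (limma adjusted p = 0.332). Without control 3 it was 0.17 (limma adjusted p = 0.621), so most of the difference in Tek rested on that library.

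Egfl7 and Sox17 departed from the common order in different ways. Egfl7 had 425, 373, 340.2 and 416 normalised reads in mutants 1 to 4, against 405, 540.1, 405 and 511 in controls 1 to 4. The mean was 389 ± 39.6 in mutants and 465 ± 70.7 in controls (SD, n = 4 each), and mutants 1 and 4 overlapped with controls 1 and 3 (log2 fold change -0.25, SE 0.12, limma adjusted p = 0.234). It was called in 1 of 20 alternatives, the fit with library quality weights (log2 fold change -0.31, limma adjusted p = 0.0441). Agpat2 and Mir126b on the other strand share exonic bases with Egfl7. Whether counting used strand is not stated, so its values are uncertain. Sox17, the member with the fewest reads, had 38.8, 41.7, 25.2 and 50.4 in mutants 1 to 4, against 36.9, 37.3, 15.7 and 37.5 in controls 1 to 4. Controls 1, 2 and 4 lay within 1 normalised read of each other and control 3 far below, and the gene was not called (log2 fold change 0.33, SE 0.32, limma adjusted p = 0.593). Without control 3 its log2 fold change was 0.03. Sox17 overlaps exonic bases of Gm37587 on the other strand.

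**Figure D2:**
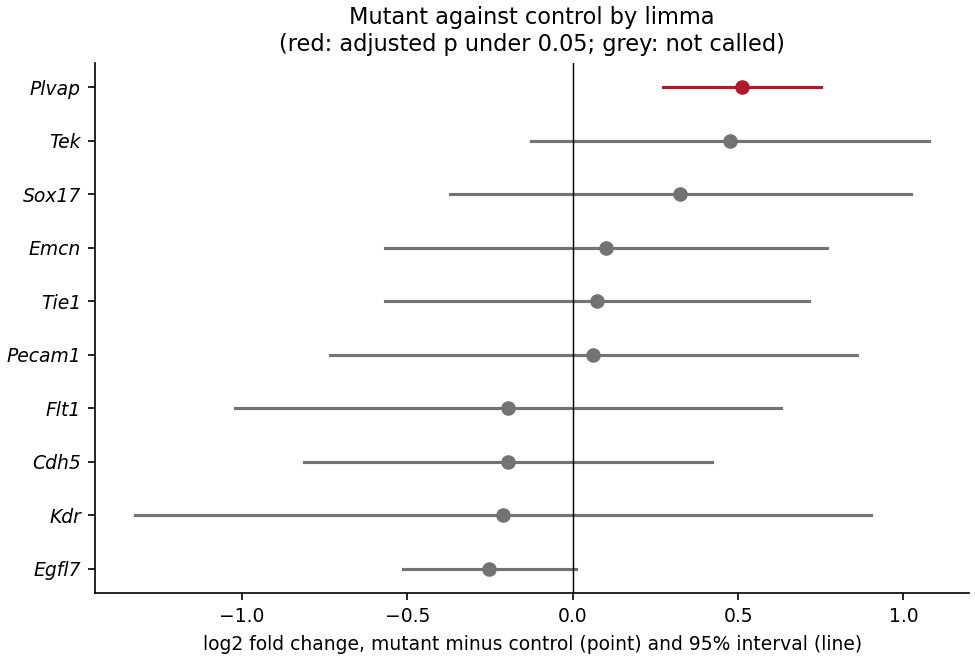
Log2 fold change of each member, mutant minus control, with its 95% interval from limma (n = 4 libraries a group). The interval of Plvap, in red, lies above 0, and those of the 9 members without a call, in grey, include 0.

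Most markers shared their high and low libraries within a group. For each gene the deviation of each library from the mean of its own group was taken on the log2 scale, which removes any difference between mutants and controls. Mutant 1 was the highest mutant for 8 of 10 members, all but Plvap and Sox17, and control 2 the highest control for 8 of 10, all but Tek and Sox17. Control 3 was the lowest control for 8 of 10, all but Plvap and Egfl7, beside 26.0% of all genes tested. The median deviation of the members was 0.28, -0.16, -0.10 and -0.06 in mutants 1 to 4, and 0.18, 0.57, -0.91 and 0.15 in controls 1 to 4. Over all genes tested these medians lay between -0.01 and 0.02.

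The spread within a group was also large for most members. The pooled within-group SD of the log2 values was 0.74 for Kdr, 0.63 for Flt1 and 0.57 for Pecam1, and between 0.46 and 0.51 for Cdh5, Tek, Tie1, Emcn and Sox17. It was 0.17 for Plvap and 0.19 for Egfl7, against a median of 0.13 over all genes tested. Plvap and Egfl7 were also the members with the most reads, and the spread was not compared with that of genes of like read level. Without control 3 the median SD of the members was 0.30, compared with 0.49 with it, and it was still above the median of 0.13 over all genes.

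**Figure D3:**
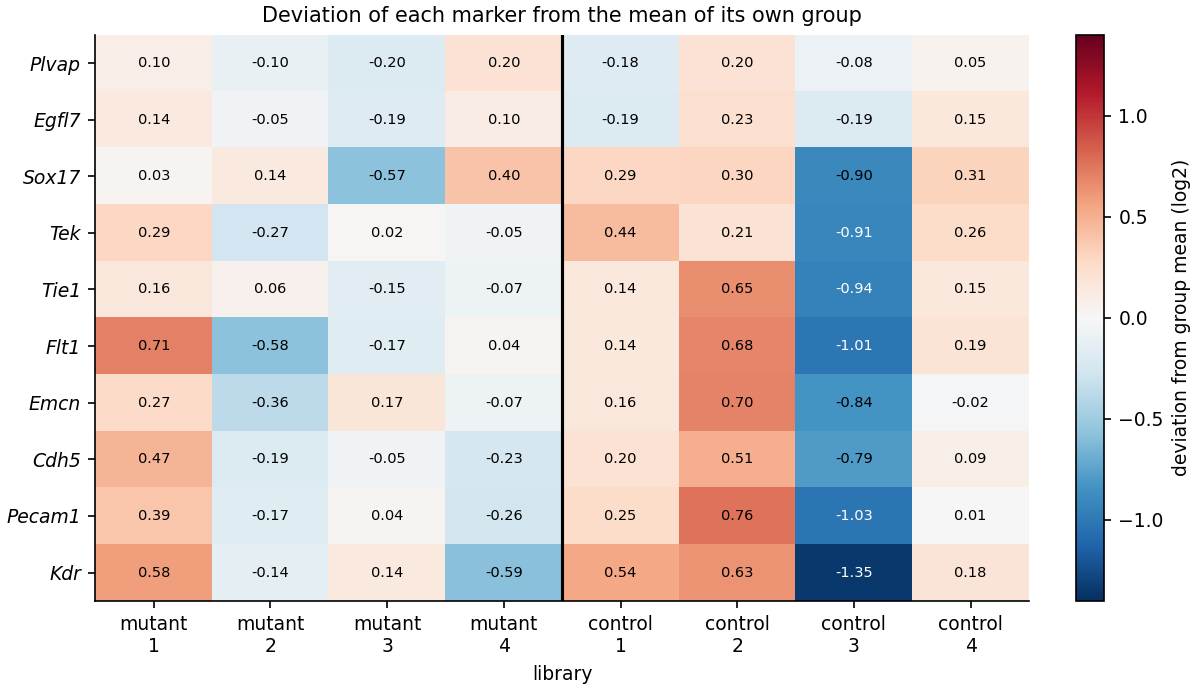
Deviation of each marker, in rows, from the mean of its own group in log2 units, for mutants 1 to 4 on the left and controls 1 to 4 on the right of the black line. Red is above and blue below the group mean. Control 3 is between -1.35 and -0.79 for 8 genes, and at -0.08 for Plvap and -0.19 for Egfl7.

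Correlations of these deviations were computed for all 45 pairs of members over the 8 libraries. Libraries are shared by all pairs, so the pairs are not independent of each other. Pearson's r was above 0 in 45 of 45 pairs, with a median of 0.80. In two-sided exact permutation tests that shuffled libraries within each group, 20 of 45 pairs had an unadjusted p under 0.05, and 5 pairs passed after Benjamini-Hochberg adjustment over the 45. Without control 3 the median r was 0.57, 7 pairs had an unadjusted p under 0.05 and 0 passed after adjustment, where 0.00694 is the smallest p that 7 libraries allow. The 5 pairs that passed over 8 libraries were those among Pecam1, Cdh5 and Kdr, and Emcn with Pecam1 and with Cdh5. Pecam1 and Cdh5 had r = 0.98 and Spearman's rho = 0.98 (exact permutation p = 0.00174 for each, adjusted p = 0.026), and r = 0.97 without the 2 libraries farthest from the median of Pecam1, which were controls 2 and 3. Pecam1 and Kdr had r = 0.96 and rho = 0.98 (exact permutation p = 0.00174 for each, adjusted p = 0.026), and r = 0.95 without those libraries. Cdh5 and Kdr had r = 0.96 and rho = 1.0 (exact permutation p = 0.00174 for each, adjusted p = 0.026), and r = 0.90 without them. The value of 0.00174 is the smallest that the 576 orders allow. Emcn with Pecam1 had r = 0.97 and rho = 0.95 (exact permutation p = 0.00347 and 0.00694, adjusted p = 0.0313 and 0.0625), and r = 0.81 without controls 2 and 3. Emcn with Cdh5 had r = 0.93 and rho = 0.90 (exact permutation p = 0.00347 and 0.0104, adjusted p = 0.0313 and 0.067), and r = 0.76 without them. For r without 2 libraries, the deviations were still taken from group means over all libraries. With only control 3 left out and means taken anew, r was 0.93 for Pecam1 with Cdh5, 0.84 for Pecam1 with Kdr and 0.88 for Cdh5 with Kdr. Emcn then had r = 0.90 with Pecam1 and 0.80 with Cdh5.

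Tie1, Flt1 and Tek followed Pecam1 with r = 0.94, 0.90 and 0.87, which missed the adjusted threshold in exact permutation tests (adjusted p = 0.0841, 0.0694 and 0.102). Their Spearman coefficients were 0.81, 0.81 and 0.76 (exact permutation p = 0.0365, 0.0347 and 0.0556, adjusted p = 0.109, 0.109 and 0.132), and without controls 2 and 3 their r was 0.56, 0.73 and 0.80. Without control 3 alone it was 0.79, 0.76 and 0.42 (exact permutation adjusted p = 0.417, 0.313 and 0.602), so the relation of Tek with Pecam1 leaned on that library. For Sox17 the relation with Pecam1 rested on the outlying libraries, since r was 0.62 and rho 0.095 over 8 libraries (exact permutation p = 0.247 and 0.852, adjusted p = 0.326 and 0.872) and r was -0.20 without controls 2 and 3.

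By median r, Plvap followed this common pattern least of the members. With Pecam1 it had r = 0.31 and rho = 0.19 (exact permutation p = 0.523 and 0.675, adjusted p = 0.57 and 0.741), and r = 0.15 without control 2 and mutant 4. Its 9 pairs had a median r of 0.37, compared with 0.84 over the 36 pairs without Plvap. Without control 3 these medians were 0.36 and 0.57, so much of the contrast rested on that library. Over all libraries the pairs of Egfl7 and of Sox17 had medians of 0.58 and 0.62. The closest partner of Plvap among the members was Egfl7, with r = 0.91 and rho = 0.79 (exact permutation p = 0.00868 and 0.00694, adjusted p = 0.0558 and 0.0625), and r = 0.92 without control 2 and mutant 4. That pair missed the adjusted threshold and passed it without mutant 4 (r = 0.95, exact permutation adjusted p = 0.0446). Its unadjusted p there was 0.00694, the smallest that 7 libraries allow, and 7 pairs passed in that setting. Without mutant 1 the same permutation p gave an adjusted p of 0.0781, so the pass depends on how many pairs share the smallest p. The threshold was also missed by Egfl7 with Pecam1 (r = 0.54, rho = 0.40, exact permutation p = 0.299 and 0.472, adjusted p = 0.384 and 0.625), for which r was -0.08 without controls 2 and 3. The difference between the correlations of Plvap and those of the other members was not tested.

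**Figure D4:**
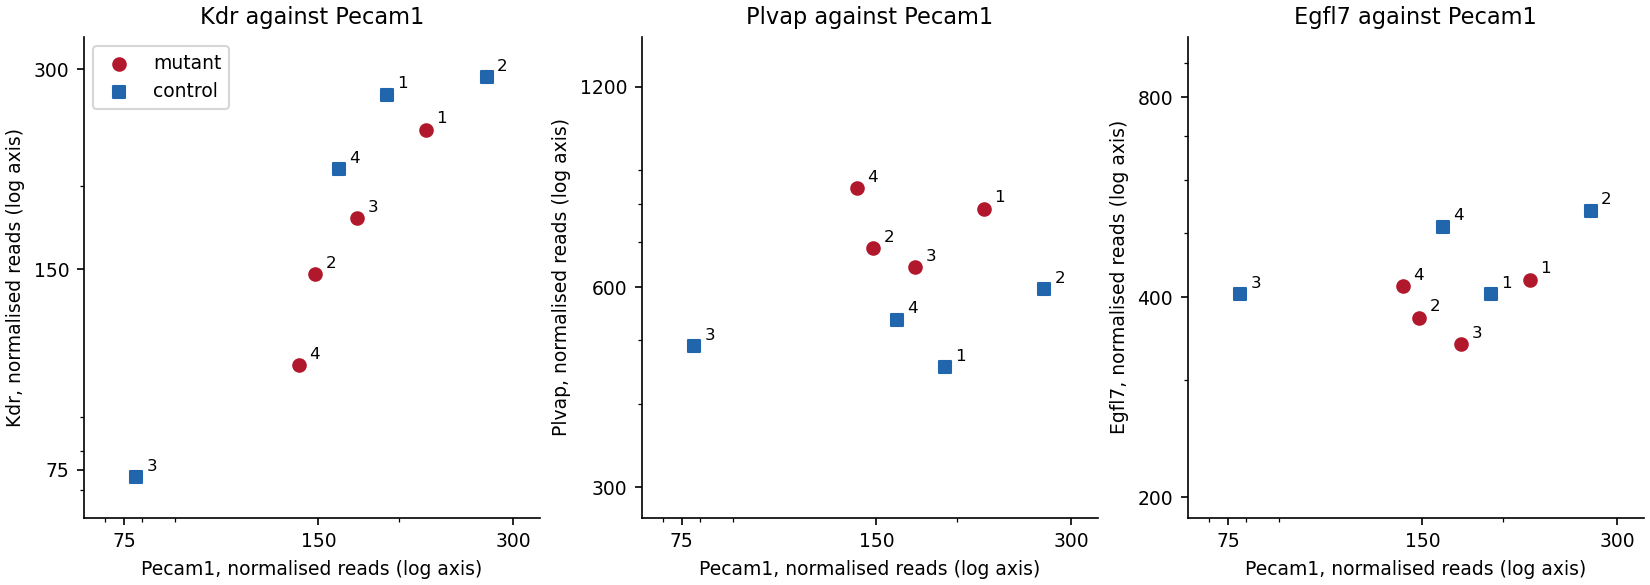
Kdr, Plvap and Egfl7 against Pecam1 in normalised reads, on log axes that span the same fold in each panel, with mutants as red circles and controls as blue squares. Digits are replicate numbers. Kdr falls on a rising line with control 3 at its lower end, while Plvap and Egfl7 in control 3 stay within the range of the other controls.

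Relative to Pecam1 in the same library, Plvap was at 3.58, 4.63, 3.73 and 6.05 in mutants 1 to 4, against 2.38, 2.18, 6.25 and 3.32 in controls 1 to 4. The ratio was higher in each mutant than in controls 1, 2 and 4 and overlapped only through control 3, where Pecam1 was low. These ratios were taken after the values were seen, for each of the 9 other members. The mean log2 ratio of Plvap was 0.45 higher in mutants (exact permutation p = 0.286 two-sided, 0.588 adjusted over the 9 ratios). Without control 3 the difference was 0.77 (exact permutation p = 0.0286, the smallest that 35 relabellings allow, 0.129 adjusted). Tek relative to Pecam1 was at 0.543, 0.544, 0.573 and 0.672 in mutants 1 to 4, against 0.497, 0.295, 0.467 and 0.518 in controls 1 to 4, which did not overlap (exact permutation p = 0.0286, 0.257 adjusted). None of the 9 ratios passed the adjusted threshold. The smallest p that 70 or 35 relabellings allow is 0.0286, and 1 or 2 ratios at that p cannot pass after adjustment over 9. These tests therefore could not decide whether Plvap or Tek changed unlike Pecam1.

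Promoter sequence was available for 6 of the 10 members. For Plvap, Pecam1, Cdh5 and Sox17 none is given. Shown are the 250 bases before the annotated start, 5′ to 3′ on the gene's strand, of Kdr, Emcn and Tie1, which followed Pecam1 between libraries, and of the first of 3 annotated starts of Egfl7, which did not (RefSeq, GRCm38.p6). Capitals mark GGAA or its reverse complement TTCC, the core letters read by the ETS family of transcription factors, several of which act in endothelium.
Kdr: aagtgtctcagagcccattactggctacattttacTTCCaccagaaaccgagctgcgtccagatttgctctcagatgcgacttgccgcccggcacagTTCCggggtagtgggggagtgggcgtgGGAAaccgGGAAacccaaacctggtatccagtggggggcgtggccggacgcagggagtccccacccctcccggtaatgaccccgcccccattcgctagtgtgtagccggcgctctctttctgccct
Emcn: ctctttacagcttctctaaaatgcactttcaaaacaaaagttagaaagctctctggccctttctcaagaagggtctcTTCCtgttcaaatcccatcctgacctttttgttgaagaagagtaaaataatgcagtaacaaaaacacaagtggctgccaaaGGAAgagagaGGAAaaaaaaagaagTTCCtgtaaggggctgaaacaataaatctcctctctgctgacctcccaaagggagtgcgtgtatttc
Tie1: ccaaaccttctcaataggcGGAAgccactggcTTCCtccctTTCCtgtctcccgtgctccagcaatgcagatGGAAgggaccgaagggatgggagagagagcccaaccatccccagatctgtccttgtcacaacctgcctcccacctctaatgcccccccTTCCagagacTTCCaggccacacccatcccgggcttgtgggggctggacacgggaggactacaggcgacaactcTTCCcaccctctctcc
Egfl7: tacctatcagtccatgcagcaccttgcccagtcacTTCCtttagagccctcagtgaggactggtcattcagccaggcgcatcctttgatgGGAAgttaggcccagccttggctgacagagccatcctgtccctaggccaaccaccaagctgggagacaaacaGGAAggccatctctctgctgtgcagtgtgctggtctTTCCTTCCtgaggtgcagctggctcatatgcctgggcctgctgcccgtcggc

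The Kdr window is chr5:75978456-75978705 on the minus strand, that of Emcn chr3:137340828-137341077 on the plus strand, that of Tie1 chr4:118489850-118490099 on the minus strand and that of Egfl7 chr2:26580833-26581082 on the plus strand. In GENCODE M21 these genes begin at 75978458, 137341067, 118490061 and 26580014. By those positions, parts of the Kdr, Emcn and Tie1 windows and all of the Egfl7 window lie inside the gene. GGAA was found on either strand 4 times in the Kdr window, 4 times in Emcn, 7 times in Tie1 and 5 times in Egfl7. It is a frequent word: 93.4% of 32851 promoter windows of this length hold it, with a median of 3 matches, and 3.82% hold at least as many as Tie1. The windows of Tek and Flt1, not shown, hold 2 and 4 matches. ACGTG, or CACGT on the other strand, one form of the core letters bound by hypoxia-inducible factor, was in 0 of the 8 windows of these 6 genes and is in 16.6% of all windows. The other form, GCGTG, stands in the Kdr and Emcn sequences shown and was not counted over all windows, so the core letters as such are not absent. The letter matches are a description of these windows only.

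A wider list of endothelial genes, which shares no member with the 10, had 27 genes that all passed the filter on low values. Of these 2 rose, Cd34 and Rasip1, 1 fell, Ramp2, and 24 were not called, so 11.1% were called beside 8.43% of all genes tested, and the median log2 fold change was 0.04. The authors' deposited table calls 3 of them as higher and 1 as lower. Cd34, which encodes a surface sialomucin of vessels and of several other cell types, had 1032, 955, 997 and 1033 normalised reads in mutants 1 to 4, against 641, 631, 509 and 550.5 in controls 1 to 4. The groups were well apart, a rise of 1.73-fold (SE 0.08 on the log2 scale, limma adjusted p = 1.16e-04). Rasip1, which encodes an effector of Ras-like GTPases needed for vessel lumens, had 458, 461, 414 and 472 in mutants 1 to 4, against 281, 338, 305 and 319 in controls 1 to 4 (log2 fold change 0.54, SE 0.09, limma adjusted p = 0.00303). Ramp2, an accessory protein of the adrenomedullin receptor, had 2909.8, 3137, 3096 and 3129.6 in mutants 1 to 4, against 3535, 4173, 4148 and 3971 in controls 1 to 4 (log2 fold change -0.36, SE 0.06, limma adjusted p = 0.00425), a call lost on the twice-divided deposited values (adjusted p = 0.0958). Of its partner receptor Calcrl the log2 fold change was -0.29 (limma adjusted p = 0.234), and Clec14a, a surface lectin of endothelium, had a log2 fold change of 0.58 (limma adjusted p = 0.0762). Cd34 and Rasip1 share exonic bases with genes on the other strand.

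The endothelial genes with a call had no large drop in control 3. Over both lists 37 endothelial genes were tested, and in 31 of them the control 3 value was under 0.8 of the mean of the other controls, which was so for 16.2% of all genes tested. In the 4 called genes, Plvap, Cd34, Rasip1 and Ramp2, the ratio was between 0.838 and 1.07, and their within-group SD lay between 0.09 and 0.17 on the log2 scale. In the 33 without a call the ratio had a median of 0.474, with 2 of them at or above 0.8, and the SD had a median of 0.49. A gene with a small spread passes the test at a smaller change, so the calls do not rank these genes by the size of their change: Adgrl4, which encodes an adhesion receptor of endothelium, had a log2 fold change of 0.55 with an SE of 0.50 (limma adjusted p = 0.572). Control 3 ratios under 0.8 were also seen in the typical endothelial genes Cldn5 (0.493), Eng (0.487) and Cd93 (0.406).

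Lists of narrower endothelial classes gave single calls. Of 11 arterial and tip cell genes 10 were tested, of which Apln rose, Sema3g fell and 8 were not called, so 2 of 10 were called beside 8.43% of all genes tested. Apln, which encodes the peptide apelin, averaged 2.54 times as much in mutants (log2 fold change 1.34, SE 0.15, limma adjusted p = 1.49e-04), with values of 237, 221, 218 and 257 normalised reads in mutants 1 to 4, against 84.4, 93.3, 75.1 and 116 in controls 1 to 4. Sema3g fell by 0.86 on the log2 scale (limma adjusted p = 0.0452). That call was lost in 11 of 20 alternatives (limma adjusted p up to 0.142), among them leaving out control 1, control 4 or any mutant. Of the tip cell genes, Dll4 was at 42.9 ± 11.5 in mutants and 49.4 ± 22.8 in controls and Angpt2 at 181 ± 40.9 in mutants and 174 ± 43.2 in controls (SD, n = 4 each, limma adjusted p = 0.947 and 0.895). Of 5 lymphatic genes 4 were in the table, and Flt4, the receptor for Vegfc, rose 2.52-fold (limma adjusted p = 3.38e-07), while Prox1, Reln and Lyve1 were not called, so 1 of 4 was called beside the same 8.43%.

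Among 10 tested genes of the growth factor and angiopoietin ligands and their other receptors, Vegfa and Flt4 rose, Pgf fell and 7 were not called, so 3 of 10 were called beside 8.43% of all genes tested. Flt4 is counted in the lymphatic list as well. Vegfa rose 2.27-fold (SE 0.08 on the log2 scale, limma adjusted p = 1.52e-06), with no overlap between the groups. Pgf, a ligand of the Flt1 receptor, fell by 0.34 (limma adjusted p = 0.0425). That call was lost in 11 of 20 alternatives (limma adjusted p up to 0.175), among them leaving out any 1 library other than control 1 or mutant 2. The receptors for Vegfa among the members, Kdr and Flt1, were not called in these libraries.

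Genes of most other cell types were low in control 3 like the endothelial ones, and those of red blood cells were not. In control 3 the median deviation was -1.94 for the ureteric bud and collecting duct list, -1.63 for tubules, -0.56 for pericytes and smooth muscle, -0.50 for podocytes, -0.48 for kidney stroma and -0.48 for leukocytes and macrophages. For the 2 tested red blood cell genes it was 0.79 in control 3 and -0.57 in control 2. In mutant 1, the highest mutant for most members, these lists were at 0.60, 0.87, 0.18, 0.30, 0.35 and 0.72. The nephron progenitor list stayed within -0.06 and 0.05 in all libraries. Control 2 differed in that podocytes (0.53) and tubules (0.65) were high with the endothelial members (0.57), while stroma (0.01) and pericytes (0.08) were near their group mean.

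The summed levels of the members and of these other cell types overlapped between mutants and controls, except for pericytes and smooth muscle, whose sum was higher in each mutant. The lymphatic sum, which includes Flt4, was also higher in each mutant, at 2124 to 2556 in mutants and 1161 to 1668 in controls. So was the sum of the ligands and their other receptors, with Vegfa and Flt4, at 29611 to 33263 in mutants and 21072 to 23111.5 in controls. The summed level of the 10 members ranged from 2004 to 2614 normalised reads in mutants and from 1439 to 2778 in controls. The sum ranged from 4447 to 10940.1 in mutants and 2500.3 to 9324 in controls for 10 tubule genes, and from 1836 to 4736 in mutants and 843 to 4101 in controls for 10 ureteric bud genes. For 12 podocyte genes it was 27773 to 32527 in mutants and 30285 to 40918 in controls, and for 11 stromal genes 28871 to 59925 in mutants and 33739.5 to 75486 in controls. For 10 pericyte and smooth muscle genes it was 21333 to 23528 in mutants and 19371 to 20783 in controls, with no overlap, as in 15.3% of single genes. Without Notch3, left out after the values were seen, the sum of the other 9 overlapped, at 13455 to 15568 in mutants and 13795 to 15497 in controls. For 12 leukocyte genes it was 833 to 1292 in mutants and 783 to 1306 in controls, and for 4 genes of red blood cells 72.2 to 174 in mutants and 112 to 292 in controls. For 10 progenitor genes it was 111730 to 120786 in mutants and 113432 to 124622 in controls. No gene of these lists that is in the table was at 0 in all libraries. Called members included Notch3 (higher) of 10 pericyte genes, Plce1 (higher) of 12 podocyte genes, and Gdnf (higher), Meox1 and Osr1 (lower) of 10 progenitor genes, beside 8.43% of all genes tested. By limma 0 genes were called among 10 tubule, 10 ureteric bud, 11 stromal, 11 leukocyte and 2 red blood cell genes tested. At a share of 8.43%, 0 calls in lists this small says little. In these lists 0, 1, 0, 0 and 1 genes had an unadjusted limma p under 0.05, and the authors' deposited table calls 0, 1, 0, 0 and 0. The calls of Plce1 and Osr1 were lost in 6 and 11 of 20 alternatives (limma adjusted p up to 0.147 and 0.15). The part of these cell types in the endothelial values was not tested.

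**Figure D5:**
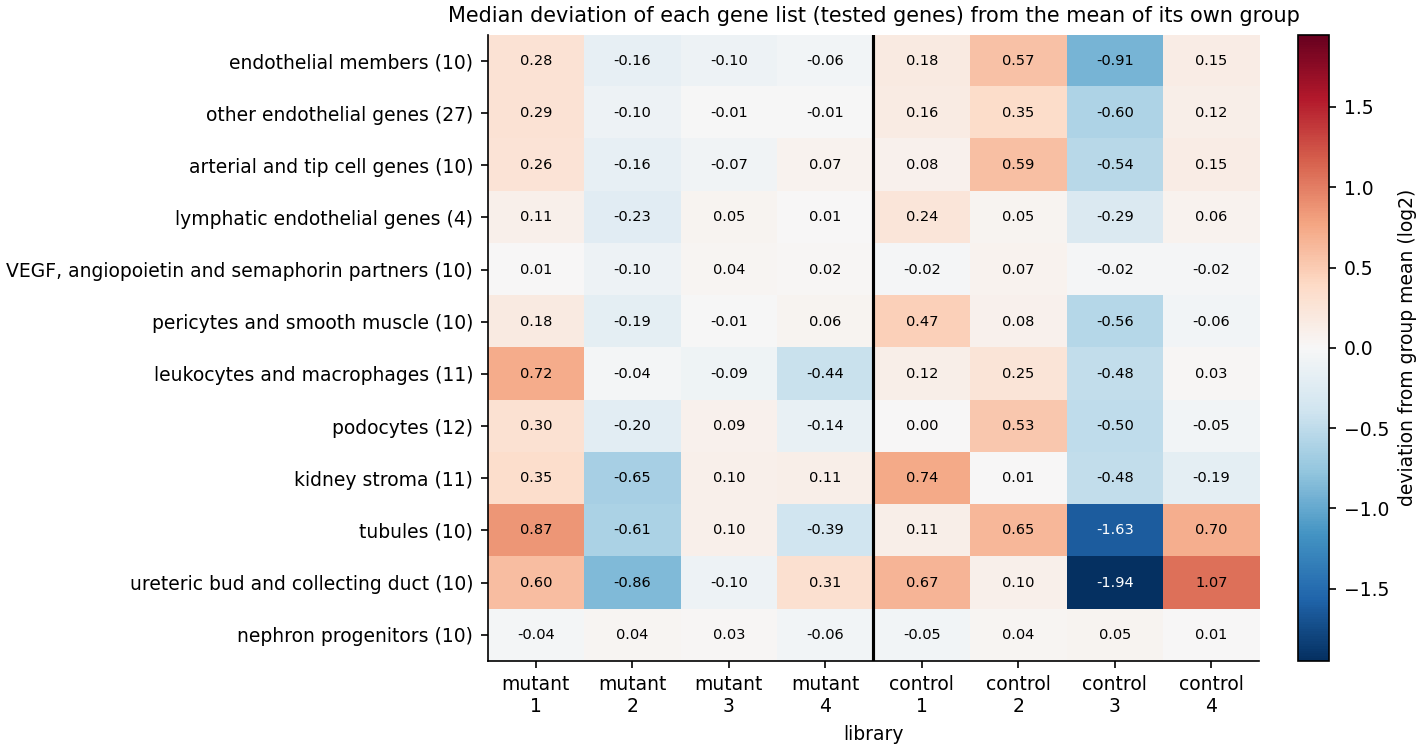
Median deviation of the tested genes of each list from the mean of their own group, in log2 units, for mutants 1 to 4 on the left and controls 1 to 4 on the right. The number of tested genes is in brackets. In control 3 the 10 endothelial members are at -0.91, and tubule and ureteric bud genes are lower still at -1.63 and -1.94, while progenitor genes are at 0.05.

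The genes whose deviations were most like those of Pecam1 over the 8 libraries were sought among 13206 tested genes outside the 10 members with a mean of at least 50 normalised reads. As the highest of so many, these values of r are a description. The members Cdh5, Emcn and Kdr, with r of 0.98, 0.97 and 0.96, would stand among the highest. In order the 10 highest of the other genes were Gm7030, Synpo, Col4a4, Gimap4, Top1mt, Nmnat3, Col4a3, Baiap2l2, H2-T23 and Afap1l1, with r between 0.95 and 0.99. Synpo is a podocyte gene, and Col4a3 and Col4a4 encode collagen chains of the glomerular basement membrane. Of the 18 genes of the wider endothelial list that were ranked, Eng was 17th (r = 0.94), Cd93 32nd, Ptprb 42nd and Cldn5 54th, while Ramp2, Calcrl and Rasip1 had r of -0.32, -0.09 and 0.20. Cd34, which was called like Ramp2 and Rasip1, was 304th with r = 0.83.

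For Plvap the 10 highest were Polr1d, Ebpl, Sod1, Med30, Hvcn1, Vmn2r-ps54, Gm2a, Ufc1, Smim1 and Rhoc, with r between 0.96 and 1.0. None of them is on any of the endothelial lists. Several encode proteins that most cells make, such as Polr1d, a subunit of RNA polymerases I and III, and the superoxide dismutase Sod1. The endothelial gene nearest to Plvap on the wider list was Rasip1, 147th with r = 0.89, and Cd34 had r = 0.25.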

How the data were processed

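The members and gene lists were chosen with earlier results of these data known. Per the labels' protocols, GFP-sorted kidney cells gave polyA RNA for TruSeq Stranded mRNA libraries. STAR 2.5.3a, DESeq2 1.18.1 and the build mm10 stand in the submitters' processing notes, while for the counter, its annotation and its use of strand nothing is stated in the sources used. The deposited signal per library is, as its values show, reads per gene divided by size factors, divided again by size factors recycled down the gene list, and rounded. Whole reads matching the deposited mean to a relative 1e-09 existed for 20254 of 20254 genes. Without the second division they existed for 0 of 11635 genes over 100 in every library. The authors also deposited log2 fold changes and p-values of their own comparison, used here as an alternative. The score that the authors deposited beside them, named stat in the file header, was not used.

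Values divided once were tested with limma 3.58.1 in R 4.3.3 as log2(value + 1), with trended, robust variances and no covariate, in 1 fit of 8 libraries. A gene was tested if 4 or more libraries had 10 or more normalised reads. This left 15381 genes, all 10 members among them. P-values were adjusted by Benjamini-Hochberg over the 15381, and a call is an adjusted p under 0.05. The scripts were tested on simulated data. Text names the members, the called genes of each list, apart from 1 result not reported here, with up to 4 others of small p, and the 10 genes most like Pecam1 and Plvap. Calcrl, Clec14a, Adgrl4, Cldn5, Eng, Cd93, Ptprb, Dll4 and Angpt2 were named after their values were seen. Gene positions and lengths are from GENCODE M21 (GRCm38), with length as the union of annotated exons. Intervals come from the limma fit. Alternatives covered scaling, pseudocount, filters, variance settings, library weights, the replicate block and libraries left out.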

Additional observations from a re-analysis of the deposited data

Results flagged for a closer look

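Sox17 had 15.7 normalised reads in control 3, far below the other 3 controls, which lay within 1 normalised read of each other. The gap from control 3 to the next control was 0.973 of the whole range of the group. Such a lone sample was looked for in 20 groups, the 10 members in mutants and in controls, and was found in 1. Chance flags about 1 in 20 groups, but the groups checked share their libraries and are not independent. In control 3 the other members apart from Plvap and Egfl7 were low too, at 0.281 to 0.474 of the mean of the other controls. Sox17 was not called with control 3 or without it.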

How the results depend on the processing

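The call of Plvap held in 18 of 20 alternatives, with log2 fold changes of 0.44 to 0.58 over all 20. It was lost without mutant 4 (0.44) and without control 3 and mutant 2 (0.52, limma adjusted p = 0.0599), which left 0 members called. The 9 other members kept their side of the threshold in 178 of 179 values, the exception being Egfl7 with library quality weights, where 2 members were called. Leaving out 1 library at a time gave 0 to 1 called members, Plvap log2 fold changes of 0.44 to 0.58, and 774 to 1565 genes called in all. Beside 1297 in the fit of all libraries, the number was 697 on twice-divided values as deposited, 764 without control 3 and mutant 2, 766 with the replicate block and 2996 with weights for library quality. With the replicate block Plvap kept its call (limma adjusted p = 0.0309). The replicate numbers share only a number: deviations of same-numbered libraries correlated between -0.14 and 0.21 over genes, and 1 of 8 libraries matched best with its own number. The wider endothelial list gave 2 to 4 calls over 20 alternatives. Of 45 pairs of members, 5 passed in all libraries and 5 with the deposited values, where the pairs of Emcn with Pecam1 and Cdh5 no longer did (exact permutation adjusted p = 0.0558 and 0.0521). The number was 0 to 7 when 1 library was left out, where the smallest p is 0.00694. Sox17 gave no value under the minimum of 50 normalised reads. Without control 3, 7 of 45 had an unadjusted p under 0.05, the median r was 0.57 and r was above 0 in 28 of the 36 pairs without Plvap. The pair of Plvap and Egfl7 kept an r of 0.88 to 0.95 when 1 library was left out, and 0.72 with the deposited values. The planned tests of edgeR and DESeq2 on recovered reads were not run. The causes of these changes were not tested.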
